A study of Mus musculus with 4 samples.

Results

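Eomes, Tbr1 and 7 further genes of cortical intermediate progenitors were followed in the cerebral cortex of mouse embryos with and without functional Pax6. The 9 genes, Eomes, Tbr1, Tfap2c, Sstr2, Insm1, Gadd45g, Btg2, Mfap4 and Gsg1l, were chosen by name from the 22770 genes of the deposited table, and each had 1 row. All 9 were among the 15399 genes that reached 0.5 FPKM in 2 or more libraries and were tested. FPKM counts the sequenced fragments of a gene per kilobase of its transcript and scales them to the library's total, so levels can be compared between genes as well as between libraries. The data are 4 RNA-seq libraries of dissected cortex at embryonic day 16.5, 2 from wild-type embryos and 2 from embryos with both Pax6 copies mutant (Pax6 sey/sey), called mutants here. All 4 came from 1 mixed background of C57BL/6J, 129S6 and CD1. Sey is known as a germline allele, so Pax6 function is missing in every tissue and from the start of development, not in the cortex alone. No label says whether a library is 1 embryo or a pool, or which litter it came from, so the p-values measure the spread between these libraries, part of which may be technical. In limma part of each gene's variance estimate comes from other genes of similar level, so close replicates alone do not give a call. The series comes from a study of how interneurons of the olfactory bulb are made, and its part used here compares cortex of Pax6 mutants with wild-type cortex.

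Cortical glutamatergic neurons arise from radial glia, which express Pax6, largely through intermediate progenitors, cells that divide away from the ventricle a limited number of times to give neurons. Eomes (also called Tbr2) and Tbr1 encode T-box transcription factors that act in sequence: Pax6 marks the radial glia, Eomes the intermediate progenitors and Tbr1 the postmitotic neurons of the early-born layers. The other 7 genes are known markers of the intermediate progenitor state. Tfap2c encodes an AP-2 transcription factor and Insm1 a zinc finger repressor that promotes the formation of basal progenitors. Gadd45g and Btg2 encode growth-restraining proteins that appear in cells about to leave the cycle. Sstr2 encodes a somatostatin receptor, Mfap4 an extracellular microfibril protein and Gsg1l an auxiliary subunit of AMPA-type glutamate receptors. Insm1, Gadd45g and Btg2 are also used by neurogenic progenitors outside the cortex, including those of the ganglionic eminences, whereas Eomes and Tbr1 in the embryonic forebrain belong to glutamatergic lineages.

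The promoters of 3 genes that were lower in the mutants are shown so that the motif matches counted here can be read beside the values; they are the genes that fell and had a matched window. RefSeq windows on GRCm38.p6, from 250 bases before the transcription start to 50 after it, were matched for 5 of the 9 genes: Eomes, Tbr1, Sstr2, Gadd45g and Btg2. Sequences run 5′ to 3′ on the gene's strand, and capitals mark TAAT on either strand, the core that homeodomain proteins bind, Pax6 with its homeodomain among them. The windows are chr9:118477939-118478238 (+ strand) for Eomes, chr2:61804203-61804502 (+ strand) for Tbr1 and chr11:113619077-113619376 (+ strand) for Sstr2. The Tbr1 window is that of RefSeq's transcript start, which lies inside the gene as GENCODE annotates it.
Eomes: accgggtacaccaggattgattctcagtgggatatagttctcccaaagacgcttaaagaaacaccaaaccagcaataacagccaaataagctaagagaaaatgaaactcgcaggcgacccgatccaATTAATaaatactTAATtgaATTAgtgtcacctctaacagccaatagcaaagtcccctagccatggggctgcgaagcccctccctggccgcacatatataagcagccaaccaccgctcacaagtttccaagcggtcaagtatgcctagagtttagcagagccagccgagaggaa
Tbr1: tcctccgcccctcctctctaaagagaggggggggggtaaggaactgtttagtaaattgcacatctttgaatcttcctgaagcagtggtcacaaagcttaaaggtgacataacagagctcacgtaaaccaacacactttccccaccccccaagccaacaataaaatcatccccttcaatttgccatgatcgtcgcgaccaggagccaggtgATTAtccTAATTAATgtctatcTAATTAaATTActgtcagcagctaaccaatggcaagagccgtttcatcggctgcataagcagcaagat
Sstr2: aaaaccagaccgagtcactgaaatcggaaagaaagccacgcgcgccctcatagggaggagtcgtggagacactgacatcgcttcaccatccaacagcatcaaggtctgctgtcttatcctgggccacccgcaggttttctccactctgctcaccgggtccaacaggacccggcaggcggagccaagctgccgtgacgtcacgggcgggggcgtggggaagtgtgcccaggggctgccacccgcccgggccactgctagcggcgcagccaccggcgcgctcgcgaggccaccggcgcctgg
With overlapping matches and both strands counted, Tbr1 held 7 TAAT matches, Eomes 4 and Sstr2 0. Btg2, which was not called, held 1, and Gadd45g, which was higher in the mutants, held 0. Of 32851 mouse promoter windows of this length, 58.0% held at least 1 such match, 11.6% held as many as Eomes and 2.37% as many as Tbr1. By the first base of each match, those of Tbr1 lay 40 to 11 bases before the start and those of Eomes 124 to 104 bases before it. GC content was 46% for Tbr1, 47.3% for Eomes and 66.3% for Sstr2 against a median of 52.7% over all windows. The T-box motif GGTGTGA, found in 3.98% of windows, occurred in 0 of the 5. The cyclic AMP response motif TGACGTCA, in 1.79% of windows, occurred once each in Sstr2 and Btg2. The E-box CANNTG, the motif of proneural factors, was in 72.3% of windows: Gadd45g had 3, Tbr1 1 and the other 3 genes 0. The motifs were chosen with the expression values known, and a match is a description of letters in a window. TAAT is a core that homeodomain proteins share, no other motif of Pax6 was searched, and binding by Pax6 was not tested.

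In the mutants, Eomes, Tbr1, Tfap2c and Sstr2 were lower, Gadd45g was higher, and Insm1, Btg2, Mfap4 and Gsg1l were not called. Of the 9 genes, 4 fell and 1 rose at a limma adjusted p under 0.05, where 3.48% of all tested genes were called in either direction, 1.46% lower and 2.02% higher. Both mutants lay below both wild types for 5 of the 9 genes and above for 2, where 51.6% of all tested genes had groups that did not overlap, 25.8% in each direction. The median log2 difference of the 9 was -0.46, against 0.00062 over all tested genes. At an unadjusted limma p under 0.05, 7 of the 9 passed, against 19.5% of all tested genes. Tissue of 1 library mixes many cells, so fewer cells of a type and less RNA per cell cannot be told apart in any value given here. The calls rest on all 4 libraries: the number of these genes that fell was 0 without wild-type library 1, wild-type library 2 or mutant library 2, and 1 (Eomes) without mutant library 1. It was also 0 without the mean-variance trend and with no filter on low values, and the 1 rise was lost in all of these and in the fit that blocked on replicate number. Without wild-type library 1, wild-type library 2 or mutant library 2, the lists of other genes given below also lost every call, other than 1 to 2 ventral markers and, without mutant library 2, 1 radial glial gene.

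Eomes showed the largest difference of the 9 genes. It measured 49.98 and 57.4 FPKM in wild-type cortex and 13.8 and 8.64 FPKM in mutant cortex. The groups did not overlap, and the lower wild type stood well above the higher mutant. The mutant mean of 11.2 ± 3.66 FPKM (SD, n = 2) was 20.9% of the wild-type mean of 53.7 ± 5.22 FPKM. The log2 difference was -2.24 (SE 0.23, 95% interval -2.82 to -1.66, limma adjusted p = 0.0204), the 41st lowest of the 15399 tested genes. The mutants differed from each other by 1.60-fold and the wild types by 1.15-fold. Eomes (ENSMUSG00000032446) lies on chromosome 9 from 118478212 to 118486132 in GRCm38, + strand, and its last part overlaps exons of the antisense gene Gm33460. Strand-specific counting is not stated, so reads of the antisense gene cannot be told apart from those of Eomes.

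Tbr1 fell less, and from a higher level. It measured 111 and 117 FPKM in wild-type cortex and 65.5 and 59.3 FPKM in mutant cortex, without overlap. The mutant mean of 62.4 ± 4.36 FPKM was 54.6% of the wild-type mean of 114 ± 4.32 FPKM (SD, n = 2). Replicates were close, within 1.05-fold in wild-type cortex and 1.10-fold in the mutants. The log2 difference was -0.87 (SE 0.07, 95% interval -1.06 to -0.68, limma adjusted p = 0.0152). Tbr1 (ENSMUSG00000035033) lies on chromosome 2 from 61802930 to 61814114, + strand, and no annotated gene overlaps it. Its nearest protein-coding neighbours, Psmd14 and Slc4a10, had log2 differences of -0.24 and -0.17 and were not called.

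Of the transcription factor genes Tfap2c and Insm1, the former fell and the latter was not called. Tfap2c measured 6.66 and 7.91 FPKM in wild-type cortex and 1.98 and 2.61 FPKM in mutant cortex. Its groups did not overlap, and the mutant mean was 31.5% of the wild-type mean. The log2 difference was -1.48 (SE 0.19, 95% interval -1.98 to -0.99, limma adjusted p = 0.0327). Tfap2c had the lowest level of the 9 genes in the mutants, and its value there rested on roughly 60 and 98 fragments. Insm1 measured 59.6 and 64.05 FPKM in wild-type cortex and 76.3 and 77.4 FPKM in mutant cortex. Every mutant value was above every wild-type value, but the log2 difference of 0.31 (SE 0.07, 95% interval 0.15 to 0.48) was not called (limma adjusted p = 0.0818). Both genes lie on chromosome 2, + strand, Tfap2c (ENSMUSG00000028640) from 172549593 to 172558622 and Insm1 (ENSMUSG00000068154), which has 1 exon, from 146221921 to 146225020.

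Of the growth-restraining genes, Gadd45g was higher and Btg2 was not called. Gadd45g measured 21.04 and 19.2 FPKM in wild-type cortex and 31.2 and 33.7 FPKM in mutant cortex. The groups did not overlap, and the mutant mean was 1.61 times the wild-type mean. The log2 difference was 0.67 (SE 0.09, 95% interval 0.45 to 0.90, limma adjusted p = 0.0335), and blocking on replicate number gave an adjusted p of 0.0550. Btg2 measured 11.9 and 14.7 FPKM in wild-type cortex and 11.7 and 12.5 FPKM in mutant cortex. These groups overlapped, with 1 mutant between the wild types, and the log2 difference was -0.12 (SE 0.13, 95% interval -0.46 to 0.23, limma adjusted p = 0.690). Gadd45g (ENSMUSG00000021453) lies on chromosome 13 from 51846678 to 51848468, + strand, and Btg2 (ENSMUSG00000020423) on chromosome 1 from 134075170 to 134079120, - strand.

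Among the receptor, synaptic and matrix genes, Sstr2 fell and the other 2 were not called. Sstr2 measured 21.2 and 27.5 FPKM in wild-type cortex and 8.31 and 5.44 FPKM in mutant cortex, without overlap. The mutant mean was 28.3% of the wild-type mean, with a log2 difference of -1.77 (SE 0.23, 95% interval -2.36 to -1.17, limma adjusted p = 0.0335). Blocking on replicate number gave Sstr2 an adjusted p of 0.0515. Sstr2 (ENSMUSG00000047904) lies on chromosome 11 from 113619342 to 113626028, + strand, inside the span of Slc39a11 on the other strand but without shared exons. The table gives Sstr2 a locus that also holds Slc39a11, Cog1 and Fam104a, and these 3 had log2 differences of -0.47, -0.33 and -0.01, none of them called.

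Gsg1l measured 4.81 and 4.84 FPKM in wild-type cortex and 3.32 and 3.43 FPKM in mutant cortex. The groups did not overlap and each pair of replicates was close, but the log2 difference of -0.46 (SE 0.15, 95% interval -0.84 to -0.08) was not called (limma adjusted p = 0.191). Without the mean-variance trend the SE of Gsg1l was 0.085 and its limma adjusted p was 0.121. Gsg1l (ENSMUSG00000046182) lies on chromosome 7 from 125878420 to 126082411, - strand. Mfap4 measured 12.7 and 23.8 FPKM in wild-type cortex and 17.6 and 16.6 FPKM in mutant cortex. The wild types of Mfap4 lay on either side of both mutants and differed by 1.88-fold, the widest replicate gap among the 9 genes in either group. Its log2 difference was -0.02 (SE 0.29, 95% interval -0.77 to 0.72, limma adjusted p = 0.976), an interval that holds changes of more than 1.5 times either way. Mfap4 (ENSMUSG00000042436) lies on chromosome 11 from 61485431 to 61488900, + strand, and shares exonic bases with Mapk7 on the other strand, so its value is uncertain. Mapk7 itself measured 42.4 to 51.95 FPKM across the 4 libraries. Mfap4 is also made by fibroblasts, and the summed level of 10 meningeal fibroblast markers was 5.27 and 3.61 FPKM in wild-type cortex and 32.8 and 8.005 FPKM in mutant cortex. The part of these cells in the Mfap4 values was not tested.

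**Figure D1:**
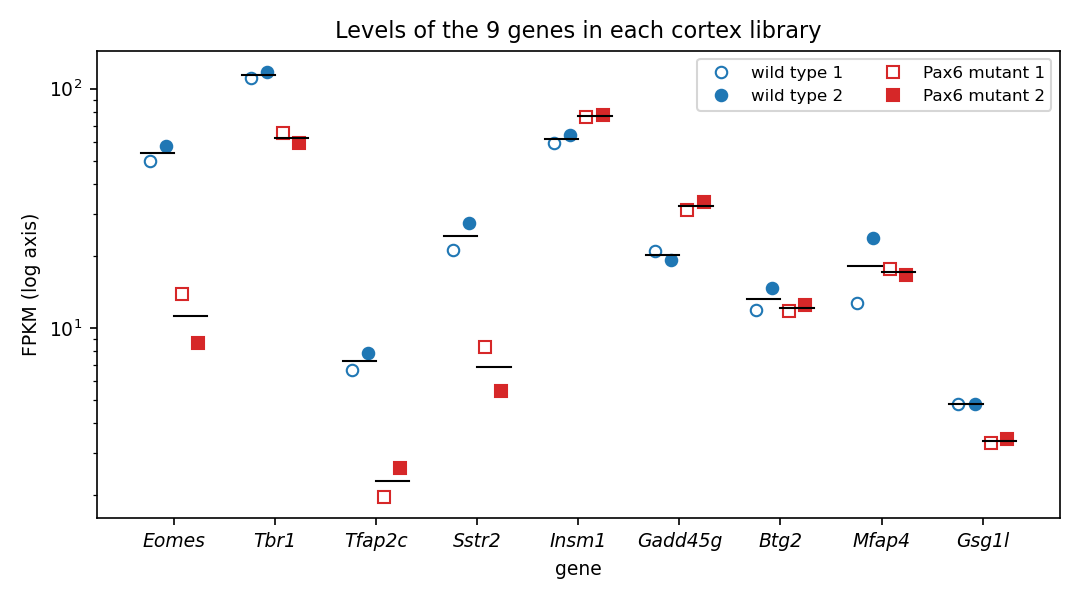
FPKM (log axis) of the 9 genes in the 4 libraries, with circles for wild types, squares for Pax6 mutants and black lines for the means of 2 libraries. The Eomes circles lie at 49.98 and 57.4 FPKM and its squares at 13.8 and 8.64, while the Btg2 and Mfap4 points overlap.

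The order of the levels differed between genotypes. In the wild types the order by mean FPKM was Tbr1, Insm1, Eomes, Sstr2, Gadd45g, Mfap4, Btg2, Tfap2c and Gsg1l. The libraries of adjacent genes in that order did not overlap except for Gadd45g with Mfap4 and Mfap4 with Btg2. In the mutants the order was Insm1, Tbr1, Gadd45g, Mfap4, Btg2, Eomes, Sstr2, Gsg1l and Tfap2c, and only Btg2 and Eomes overlapped as neighbours. Eomes had rank 3 of 9 in both wild types, rank 5 in mutant library 1 and rank 6 in mutant library 2. Insm1 and Eomes were close in the wild types, at 61.8 ± 3.16 and 53.7 ± 5.22 FPKM, and far apart in the mutants, at 76.8 ± 0.809 and 11.2 ± 3.66 FPKM (SD, n = 2).

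The difference between the change of Eomes and that of each other gene was taken as a log2 ratio within each library. The ratio of Eomes to Tbr1 was -1.15 and -1.03 on the log2 scale in wild-type cortex and -2.20 and -2.71 in the mutants, a difference of -1.37. The mutant ratios were lower than the wild-type ratios in every library, and the gap between groups exceeded the gap of 0.51 between the mutants. The ratio of Eomes to Insm1 was -0.25 and -0.16 in wild-type cortex and -2.42 and -3.09 in the mutants, a difference of -2.55. Against Gadd45g the difference was -2.91, against Mfap4 -2.22, against Btg2 -2.12 and against Gsg1l -1.78. Against Tfap2c and Sstr2, which fell too, it was smaller, -0.76 and -0.47. The ratio to Tfap2c was 2.53 in mutant library 1, near the 2.82 and 2.78 of the wild types, and 1.56 in mutant library 2. For all 8 pairs the groups did not overlap, and an exact permutation test, two-sided, gave p = 0.333 for each, also after Benjamini-Hochberg adjustment over the 8. That is the smallest p that 2 against 2 libraries allow, so the test cannot separate these pairs.

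**Figure D2:**
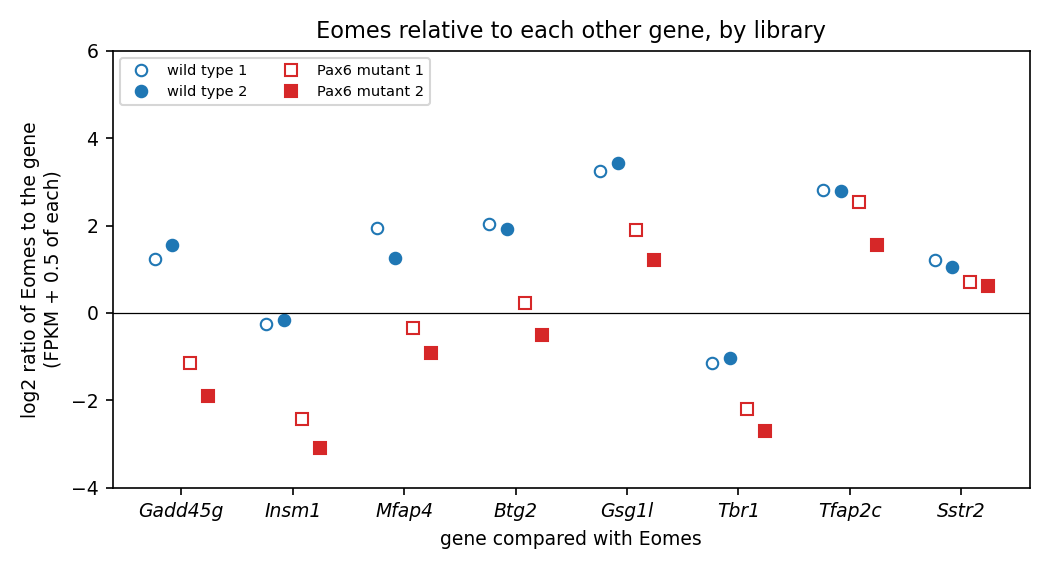
Log2 ratio of Eomes to each of the other 8 genes (FPKM + 0.5 of each) in the 4 libraries, with circles for wild types and squares for Pax6 mutants, ordered by the difference between groups. The differences run from -2.91 for Gadd45g to -0.47 for Sstr2.

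Other genes of intermediate progenitors and newborn glutamatergic neurons were lower in part. Of 18 such genes 17 were tested, and 4 fell and 0 rose by limma, beside 1.46% and 2.02% of all tested genes. At an unadjusted p under 0.05, 7 were lower and 4 higher. The 4 higher were Dll3, Mfng, Elavl4 and Sox4, with log2 differences of 0.65, 0.40, 0.39 and 0.25, none of them called. Neurog1, a close relative of Neurog2, was below the filter at 0.262 and 0.490 FPKM in wild-type cortex and was listed at 0 in both mutants. The median log2 difference was -0.21, with 10 genes below 0 and 7 above. Neurog2, the proneural factor that drives Eomes-positive progenitors toward glutamatergic fate, was 27.1 and 38.2 FPKM in wild-type cortex and 2.39 and 1.19 FPKM in mutant cortex (log2 difference -3.88, SE 0.31, limma adjusted p = 0.0130). Neurod1, a factor of newborn neurons downstream of Neurog2, was 15.6 and 17.8 FPKM against 3.08 and 1.73 FPKM. The log2 difference of Neurod1 was -2.60 (SE 0.25, limma adjusted p = 0.0196), beside -2.24 for Eomes. Unc5d, a netrin receptor gene of multipolar cells in the subventricular zone, was 16.7 and 19.3 FPKM against 3.41 and 2.18 FPKM (log2 difference -2.52). Sema3c, a secreted semaphorin gene, was 23.7 and 21.4 FPKM against 7.26 and 3.67 FPKM (log2 difference -2.01). Neurod4, a proneural factor gene, lay just outside the threshold, at 1.18 and 1.16 FPKM in wild-type cortex and listed at 0 and 0.0873 FPKM in mutant cortex (log2 difference -1.62, limma adjusted p = 0.0500086). Neurod4 and the 4 higher genes fall outside the rule for named genes and were picked after their values were seen. The number of genes of this list that fell was 5 with a pseudocount of 1, median centring, quantile normalization, robust eBayes or the block.

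**Figure D3:**
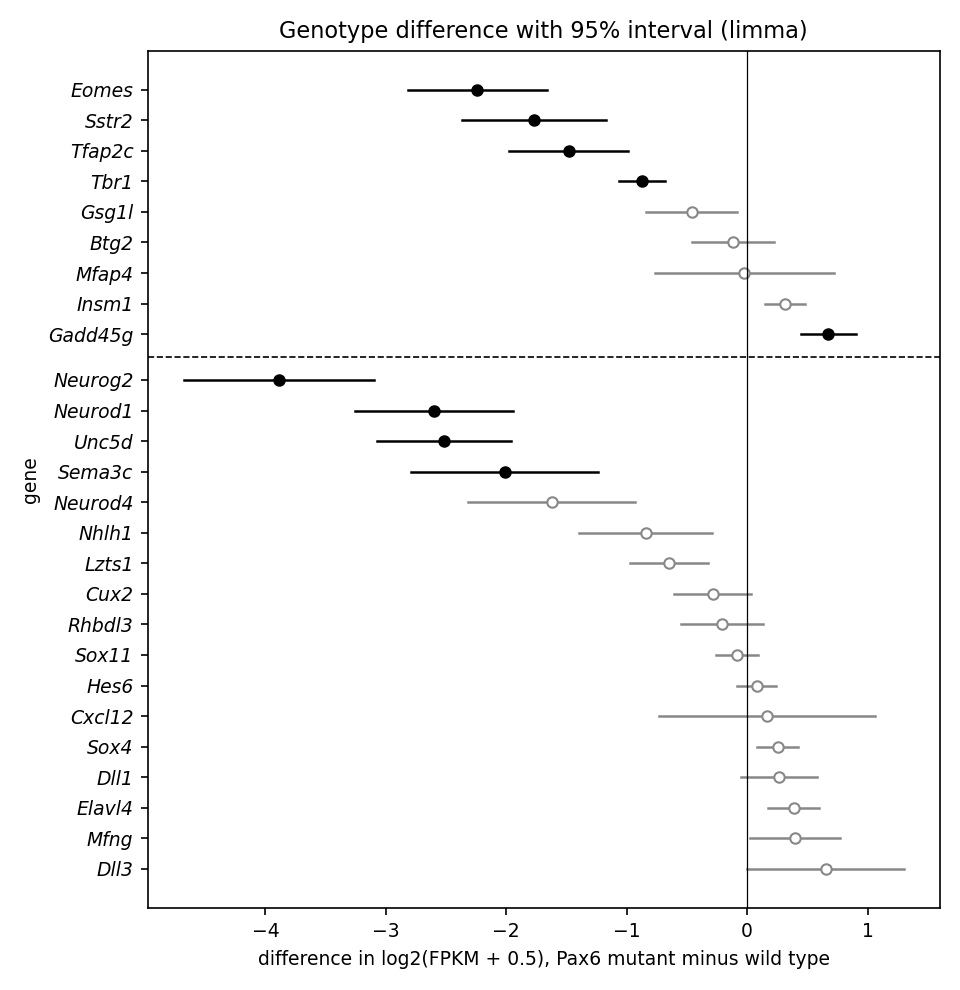
Difference in log2(FPKM + 0.5), Pax6 mutant minus wild type, with its 95% limma interval for the 9 genes (above the dashed line) and for 17 other genes of intermediate progenitors and newborn neurons (below it). Filled points passed an adjusted p under 0.05. Eomes lies at -2.24, Neurog2 at -3.88 and Gadd45g at 0.67.

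Radial glial and neuronal genes give the levels on either side of the intermediate progenitor in the lineage. Of 16 radial glial genes 4 rose and 2 fell, beside 2.02% and 1.46% of all tested genes. Their median log2 difference was 0.11, and 2 rose in the fit that blocked on replicate number. At an unadjusted p under 0.05, 10 of the 16 passed, 5 of them lower, beside 19.5% of all tested genes. Pax6 RNA, which Sey leaves in place, was 28.8 and 27.02 FPKM in wild-type cortex and 100.7 and 120.3 FPKM in mutant cortex (log2 difference 1.96, limma adjusted p = 0.00466). Sox2, a factor of neural progenitors, rose by 1.79 on the log2 scale, while the pallial factor gene Emx1 fell by 0.83 and the matrix gene Tnc fell by 1.45. Of 8 pan-neuronal genes 1 fell and 0 rose by limma (3 at an unadjusted p under 0.05, all lower), with a median of -0.17. The gene that fell was Rbfox3, which encodes the neuronal nuclear antigen NeuN, from 24.5 ± 0.0124 to 12.6 ± 1.59 FPKM (log2 difference -0.93, limma adjusted p = 0.0281).

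Genes known to act with or under Tbr1 in cortical neurons did not share 1 direction. Of 17 tested genes 3 fell and 1 rose, beside 1.46% and 2.02% of all tested genes. The median was -0.11, with 10 below 0 and 7 above. At an unadjusted p under 0.05, 9 of the 17 passed, 5 of them lower, beside 19.5% of all tested genes. Hs3st4 and Tle4, both used as markers of corticothalamic neurons, fell by 0.60 and 0.50 on the log2 scale (limma adjusted p = 0.0354 and 0.0366). Reln, which encodes the secreted guidance protein reelin and is a known target of Tbr1, rose instead, from 47.1 ± 0.0201 to 73.6 ± 7.62 FPKM (log2 difference 0.63, limma adjusted p = 0.0346). Blocking on replicate number left 1 of the 17 lower and 1 higher.

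Each gene was set beside its relatives or known partners. Over all tested genes 1.46% were called lower and 2.02% higher. In the T-box family, 16 genes had a row and 6 were tested, and Eomes and Tbr1 alone were called. Mga, which encodes a T-box protein that pairs with Max, was the only other T-box gene above 2 FPKM, at 27.6 to 31.97 FPKM in the 4 libraries, and 7 of the 16 were under 0.5 FPKM in every library. In the AP-2 family Tfap2c and Tfap2d were tested and both fell. Tfap2d was 2.45 and 1.82 FPKM in wild-type cortex, and 0.218 and listed at 0 in the mutants, where few fragments lie behind a value (log2 difference -2.12, limma adjusted p = 0.0372), and the call was lost with a pseudocount of 0.1. In the somatostatin group, Sstr2 fell while Sst, the gene of its peptide ligand and a marker of interneurons, rose from 26.6 ± 1.97 to 60.4 ± 15.6 FPKM (log2 difference 1.15, limma adjusted p = 0.0455), a call lost with quantile normalization and with the block. Sstr2 was the highest receptor in the wild types, and Sstr1 measured 1.99 to 4.78 FPKM across the 4 libraries.

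Gadd45g was the only 1 called of Gadd45a, Gadd45b, Gadd45g and Gadd45gip1, the last of which encodes a partner protein and not a Gadd45 protein. Gadd45a and Gadd45b were below 3 FPKM in every library. All 4 genes had log2 differences above 0, that of Gadd45gip1 being 0.18. For 3 of the 4, Gadd45b, Gadd45g and Gadd45gip1, both mutants lay above both wild types, beside 25.8% of all tested genes. Gadd45b was 0.463 and 0.680 FPKM in wild-type cortex and 1.15 and 0.906 FPKM in mutant cortex (log2 difference 0.51, not called). Its mutant mean was 1.80 times the wild-type mean, beside 1.61 for Gadd45g. In the Btg and Tob family, Btg1 rose from 26.7 ± 1.43 to 72.9 ± 6.59 FPKM (log2 difference 1.43, limma adjusted p = 0.00749), while Btg2, its close relative, was not called. Of 12 genes of the p53 response, a pathway that can induce Btg2, 0 were called by limma (5 at an unadjusted p under 0.05), and the highest, Bax and Plk2, had log2 differences of -0.20 and -0.42. Of 10 tested immediate early genes, a class that Btg2 also belongs to, 1 rose by limma (2 at an unadjusted p under 0.05): Jun, from 14.0 ± 1.69 to 25.2 ± 1.28 FPKM. Of 7 tested genes of Insm1 and its corepressor partners 0 were called by limma (2 at an unadjusted p under 0.05); Hdac2 and Kdm1a, the highest, had log2 differences of -0.03 and -0.05. Of 9 tested genes, the Mfap genes by name with Fbn1, Fbn2 and Eln, 0 were called by limma (2 at an unadjusted p under 0.05), with Mfap2 at 0.42 and Mfap3 at -0.05. Not all genes named Mfap, Mfap1a and Mfap1b among them, encode matrix proteins. Of 13 tested genes of AMPA receptors and their auxiliaries 1 rose, the subunit gene Gria4, from 10.97 ± 1.97 to 22.8 ± 1.44 FPKM, with a log2 difference of 1.03 (limma adjusted p = 0.0356). At an unadjusted p under 0.05, 8 of the 13 passed, 4 of them lower, beside 19.5% of all tested genes.

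**Figure D4:**
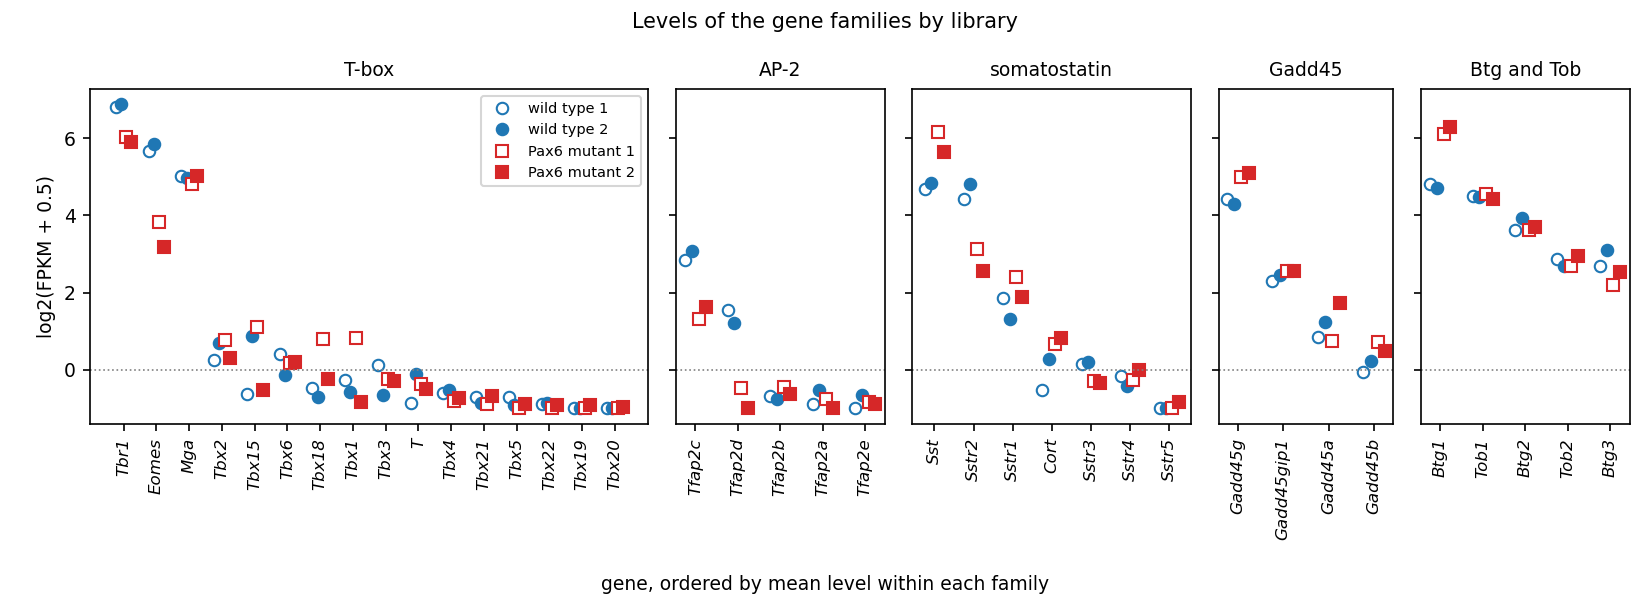
Level as log2(FPKM + 0.5) of each gene of 5 families in the 4 libraries, with the partner gene Gadd45gip1 set beside the Gadd45 genes. Circles are wild types, squares are Pax6 mutants and the dotted line is at 0.5 FPKM. Of the called genes, Eomes, Tbr1, Tfap2c, Tfap2d and Sstr2 have both squares below both circles, and Gadd45g, Btg1 and Sst both above. Genes that were not called could also have groups that did not overlap, such as Btg3 (below) and Gadd45b (above). Groups did not overlap for 51.6% of all tested genes.

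The genes most like Eomes and Tbr1 were sought among named genes with a mean of at least 5 FPKM, by the Euclidean distance between log2 values centred on each gene's mean over the 4 libraries. With 4 libraries this measure mostly reads the size of the genotype difference. Nearest to Eomes was Nrn1, which encodes the neuritogenesis factor neuritin, at a distance of 0.21, with 31.6 and 35.9 FPKM in wild-type cortex and 7.65 and 5.92 FPKM in mutant cortex. Unc5d, Slc17a6 (the vesicular glutamate transporter VGLUT2), Neurod1 and Sema3c followed at distances of 0.28 to 0.38. Of these 5, Unc5d, Neurod1 and Sema3c were in the intermediate progenitor list above. That list was chosen with earlier results of these data known, so the overlap is a description and not a test. Nearest to Tbr1 were Slc26a7, Tmtc1, Emx1, Frrs1l and Adgrl2, at distances of 0.03 to 0.06. Among these Emx1, at 28.97 and 29.9 FPKM in wild-type cortex and 17.2 and 15.7 FPKM in mutant cortex, is a pallial transcription factor, and Frrs1l encodes an AMPA receptor assembly factor.

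**Figure D5:**
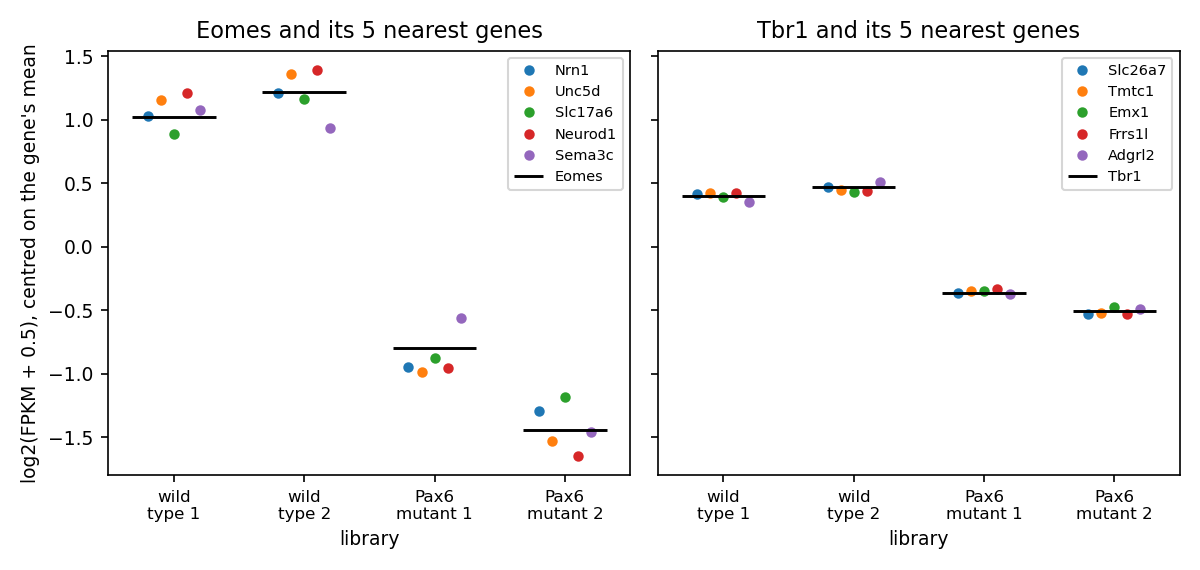
Values of log2(FPKM + 0.5), centred on each gene's mean over the 4 libraries, for Eomes and its 5 nearest genes (left) and Tbr1 and its 5 nearest genes (right). Black bars are Eomes or Tbr1 and coloured points the other genes, which lie within 0.38 of Eomes and within 0.06 of Tbr1 as a distance over all 4 libraries.

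Markers of other cells differed between the groups, and their part in the results was not tested. The 10 ventral progenitor and newborn interneuron markers summed to 105 to 135 FPKM in wild-type cortex and 739 to 853 in mutant cortex. Of the 10, 9 rose, among them Dlx1 and Gad1, beside 2.02% of all tested genes. Sums for Cajal-Retzius cells, which also express Tbr1, were 64.4 to 67.8 against 99.4 to 111 FPKM, with 2 of 6 tested markers higher (Reln and Cacna2d2). Mitral cells of the olfactory bulb express both Eomes and Tbr1; their markers summed to 15.9 to 16.2 against 11.1 to 11.7 FPKM, nearly all of it Slc17a7, which cortical neurons express too, while Tbx21 and Cdhr1 did not exceed 0.127 FPKM in any library. The remaining mitral marker, Barhl2, was 0.237 and 0.128 FPKM in wild-type cortex and 0.585 and 0.831 FPKM in mutant cortex, without overlap and not called (log2 difference 0.82, limma adjusted p = 0.219). Vessel markers summed to 71.6 to 75.3 FPKM in wild-type cortex and 86.9 to 103.7 in the mutants, meningeal fibroblast markers to 3.61 to 5.27 against 8.005 to 32.8, and choroid plexus markers to 1.38 to 2.00 against 0.708 to 1.09. Microglial markers summed to 18.8 to 23.6 against 17.2 to 19.8 FPKM, red blood cell markers to 1558 to 1728 against 1747 to 1815, and oligodendrocyte precursor markers to 15.1 to 30.1 against 22.7 to 30.01. No tested gene of these last 6 lists was called by limma, and no marker in any list was at 0 in all 4 libraries. At an unadjusted p under 0.05 there were 4 of 10 vessel, 4 of 6 meningeal and 1 of 1 choroid plexus markers. Counts were 2 of 7 microglial, 1 of 6 red blood cell and 0 of 5 oligodendrocyte precursor markers. The share of all tested genes was 19.5%. Both mutants lay above both wild types for 10 of 10 vessel and 5 of 6 meningeal markers and below for 0 of either list. Over all tested genes 25.8% did so in each direction. The pallial genes Emx1 and Lhx2 were present in every library, at 15.7 FPKM or more.

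The mutant libraries differed in ways that touched these genes. Eomes, Sstr2 and Tbr1 were lower in mutant library 2 than in mutant library 1, and Tfap2c was higher. All 4 of the other intermediate progenitor genes that fell, Neurog2, Neurod1, Unc5d and Sema3c, were also lower in mutant library 2. Among all 225 genes that fell, 150 (66.7%) were lower in mutant library 2. Among all 311 genes that rose, 245 were higher in mutant library 2 and 66 lower. Mutant library 2 had the higher ventral marker sum (853 against 739 FPKM) and mutant library 1 the higher meningeal sum. Mutant library 1 was the only library with Xist above 0.224 FPKM, at 350.1 FPKM, and the only one with the Y-linked Ddx3y listed at 0. Ddx3y was 16.5 to 23.3 FPKM in the others. Read by these genes, mutant library 1 was female and the others male, so sex was not balanced between the groups. The part of sex in the results was not tested. Depth estimated from the lowest values of the table was 0.754 (wild-type library 2), 0.928 (mutant library 1) and 1.15 (mutant library 2) relative to wild-type library 1, and the 9 genes rested on about 60 (Tfap2c, mutant library 1) to 5430 fragments (Tbr1, wild-type library 1).

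The authors' deposited table gives its own p-values from a test that is not stated. In the authors' deposited table Eomes had a ratio of mutant to wild type of 0.209 with p = 1.76e-07, Tbr1 0.546 with p = 0.000162 and Sstr2 0.283 with p = 0.00212. In the same deposited table by the authors, Tfap2c (p = 0.227), Gadd45g (p = 0.103) and Insm1 (p = 0.203) did not pass 0.05, and Btg2, Mfap4 and Gsg1l had p = 1. Thus Eomes, Tbr1 and Sstr2 passed in both analyses, and Tfap2c and Gadd45g in limma only. Over the tested genes 2.58% had a deposited p by the authors under 0.05. Around the 9 genes, 16 of 18 nearest protein-coding neighbours were tested and 1 was called, Sox9, which rose by 0.78 on the log2 scale. Sox9 is the nearest protein-coding gene before Sstr2 on chromosome 11 but lies far from it, ending at 112787760 where Sstr2 starts at 113619342. The neighbours of Eomes, Cmc1 and Golga4, had log2 differences of 0.14 and 0.15 and were not called. Cfap61, a neighbour of Insm1, was 30.96 FPKM in wild-type library 1 and 0.318 to 0.513 FPKM in the other 3 libraries.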

How the data were processed

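Cortex RNA of 4 libraries was compared, 2 wild type and 2 Pax6 sey/sey. The authors deposited 1 table with an FPKM value per gene and library, a group FPKM, a ratio of mutant to wild type and a p-value, per the file headers. Cufflinks 2.2.1, TopHat2 2.0.9 and edgeR appear in the submitters' processing notes, beside the builds mm10 and GRCm38.p4, with no role for any. Strand use and scaling between libraries are not stated. Symbols were taken by Ensembl identifier (22599 of 22770 matched), and coordinates from GENCODE on GRCm38, counted from 1.

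A gene was tested if 2 or more libraries reached 0.5 FPKM. Genotype was tested on log2(FPKM + 0.5), which understates changes of low genes, by limma's moderated linear model (version 3.58.1, R 4.3.3, variance trend on), no block, and Benjamini-Hochberg adjustment over all tested genes at a threshold of 0.05. Column totals were 579698 to 593256 FPKM. Fragment numbers are estimates from the most frequent FPKM times kilobases among low genes, and depend on annotated exon length. The genes and lists were chosen with earlier results of these data known. Named genes are the 9, Pax6, up to 4 called genes of each list with the smallest p (at most 2 of the highest where none was called) and the 5 nearest to Eomes and to Tbr1. Alternatives were other pseudocounts, filters, scalings and variance models, a replicate block, and leaving out each library. The values of 1 listed gene are not reported here.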

Additional observations from a re-analysis of the deposited data

How the results depend on the processing

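With 2 libraries a group, calls were lost in settings that left the log2 differences as they were. Over 9 alternatives that kept all libraries, the log2 difference of Eomes stayed between -2.28 and -2.19, Tbr1 between -0.88 and -0.87, Tfap2c between -1.63 and -1.33, Sstr2 between -1.83 and -1.70 and Gadd45g between 0.66 and 0.68. With no filter on low values the differences were those of the main analysis but no longer passed, for Eomes (-2.24, adjusted p = 0.0674), Tbr1 (-0.87, 0.0526), Tfap2c (-1.48, 0.0864), Sstr2 (-1.77, 0.0864) and Gadd45g (0.67, 0.0761). Without the mean-variance trend the same held for Eomes (-2.24, 0.0736), Tbr1 (-0.87, 0.0746), Tfap2c (-1.48, 0.0716), Sstr2 (-1.77, 0.0928) and Gadd45g (0.67, 0.0946). In both settings 0 of the 9 genes were lower and 0 higher, and 0 of the other intermediate progenitor genes were lower. Over all genes 21 were lower and 40 higher with no filter, and 20 and 34 without the trend, against 225 and 311.

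With the replicate number as a block, Sstr2 (-1.77, adjusted p = 0.0515) and Gadd45g (0.67, 0.0550) were lost, so 0 of the 9 were higher. Same-numbered libraries deviated together with a correlation of 0.05 across genes, and 2 pairs are too few to say that the numbers pair the libraries.

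Leaving out 1 library gave, from lowest to highest, -2.56 to -1.92 for Eomes, -0.94 to -0.80 for Tbr1, -1.65 to -1.32 for Tfap2c, -2.05 to -1.48 for Sstr2, 0.61 to 0.74 for Gadd45g, 0.26 to 0.36 for Insm1 and -0.48 to -0.44 for Gsg1l. The sign turned for Btg2 (-0.26 to 0.03, 0.0298 without wild-type library 2) and for Mfap4 (-0.46 to 0.42, positive at 0.42 without wild-type library 2 and at 0.02 without mutant library 2). It also turned for Hdac2 (-0.102 to 0.0327, the highest without mutant library 1), Kdm1a (-0.115 to 0.0160, the highest without mutant library 2) and Mfap3 (-0.0997 to 0.00699, the highest without wild-type library 2), none of them called. The number of the 9 lower ran from 0 to 1 and higher was 0, other intermediate progenitor genes lower from 0 to 4, all genes lower from 1 to 28 and all genes higher from 6 to 31. These fits leave 1 library in a group, which is assumed to vary like the other group. Of the 33 other genes recomputed, 277 of 429 values kept direction and call, 149 kept direction only and 3 reversed. For genes of low level, such as Tfap2c and Tfap2d in the mutants, depth limits the precision.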
